A study of Mus musculus with 4 samples.

Results

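The hypoxia-inducible factors (HIFs) and genes of their pathway, 10 members in all, were described in heart ventricles of mice at postnatal day 14. The members were chosen by name: Hif1a, Epas1, Hif3a, Egln1, Egln3, Vegfa, Bnip3, Bnip3l, Car9 and Ankrd37. They are 10 of the 36814 rows of the authors' table, found by symbol, each with 1 row, and all 10 were among the 24454 rows that the authors tested. RNA was sequenced from the ventricles of 2 control mice, labelled wild type, and 2 mutant mice, with the atria removed. Mutants came from a cross of mice with a conditional Hnrnpu allele to mice that carry the Ckmm-Cre transgene. In this transgene the promoter of muscle creatine kinase drives Cre recombinase in striated muscle cells, so the other cells of the ventricle can still carry the intact gene. Every animal was on a mixed C57BL/6 and 129 S4 background, and each group had 1 male and 1 female. The labels call the controls wild type and state no further allele for them.

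HIFs are transcription factors made of an oxygen-regulated alpha subunit (Hif1a, Epas1, Hif3a) and the stable partner Arnt. With oxygen present, prolyl hydroxylases of the Egln family mark the alpha subunits, the Vhl ubiquitin ligase binds the mark and the proteasome degrades them. When oxygen is low, the alpha subunits accumulate as proteins, enter the nucleus and bind a short core motif in DNA near genes for glycolysis, vessel growth, mitophagy and pH control. Much of this control acts on the alpha proteins, which RNA sequencing does not measure.

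The data collected were 1 RPKM value per group and gene (reads per kilobase of transcript and per total of mapped reads), with the authors' fold change and test. No value per animal was analysed here, so levels carry no SD, and it cannot be said how the animals of a group spread. Sequencing depth per animal is not stated in the table. Hnrnpu, the targeted gene, was listed at 32.7 RPKM in controls and at 15.2 RPKM in mutants, and the authors' deposited table gives adjusted p = 0.438 for it, without a call. All 12 cardiomyocyte markers were present, with summed levels of 10784 RPKM in controls and 11274 RPKM in mutants. This sum rests on Actc1, cardiac actin, at 2380 RPKM in controls and 4530 RPKM in mutants without a call. The other 11 markers summed to 8404 RPKM in controls and to 6744 RPKM in mutants, and 9 of all 12 lay below control.

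The core motif that HIFs bind was searched in RefSeq promoter windows (GRCm38.p6) that run from 250 bases before to 50 bases after a gene's start. The searched letters were ACGTG and GCGTG on both strands, and the palindrome of an ACGTG on each strand was counted as 2 overlapping cores. The windows are shown for the called members Hif3a and Bnip3, for Egln3, which came next, and for Vegfa, the member that lay below control. Capitals mark the cores, and a core on the other strand reads CACGT or CACGC as printed.
Bnip3 (chr7:138909457-138909756, minus strand): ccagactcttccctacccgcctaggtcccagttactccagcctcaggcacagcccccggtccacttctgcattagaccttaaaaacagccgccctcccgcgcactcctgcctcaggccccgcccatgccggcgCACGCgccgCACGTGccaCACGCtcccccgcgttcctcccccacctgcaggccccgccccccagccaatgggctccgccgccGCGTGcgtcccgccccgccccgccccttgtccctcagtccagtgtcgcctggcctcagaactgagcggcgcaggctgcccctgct
Hif3a (chr7:17062378-17062677, minus strand): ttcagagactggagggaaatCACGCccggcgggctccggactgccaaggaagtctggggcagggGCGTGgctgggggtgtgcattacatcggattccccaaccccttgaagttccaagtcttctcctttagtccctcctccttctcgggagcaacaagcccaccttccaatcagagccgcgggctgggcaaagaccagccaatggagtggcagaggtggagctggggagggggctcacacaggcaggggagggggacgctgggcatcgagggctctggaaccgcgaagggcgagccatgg
Egln3 (chr12:54203825-54204124, minus strand): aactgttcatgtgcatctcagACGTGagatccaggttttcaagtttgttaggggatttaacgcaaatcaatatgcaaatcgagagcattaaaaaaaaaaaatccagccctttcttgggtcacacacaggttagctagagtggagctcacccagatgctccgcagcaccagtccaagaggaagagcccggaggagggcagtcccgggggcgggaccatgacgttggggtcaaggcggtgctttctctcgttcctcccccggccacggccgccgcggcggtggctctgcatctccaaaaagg
Vegfa (chr17:46032328-46032627, minus strand): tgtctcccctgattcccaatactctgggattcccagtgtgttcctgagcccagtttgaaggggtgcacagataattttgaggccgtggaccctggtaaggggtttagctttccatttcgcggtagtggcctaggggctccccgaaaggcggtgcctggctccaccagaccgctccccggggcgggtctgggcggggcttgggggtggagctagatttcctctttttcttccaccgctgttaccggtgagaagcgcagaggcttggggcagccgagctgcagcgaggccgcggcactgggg

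The Bnip3 window held 5 cores, the Hif3a window 2, the Egln3 window 1 and the printed Vegfa window 0. A window at another Vegfa start (chr17:46025114-46025413) held 2. Among the other members with a window, Ankrd37 had 4 cores, Hif1a 3, Egln1 2 and Car9 1. The end of the Vegfa window with 2 cores was not found in a GENCODE M21 transcript of Vegfa. The same was true of the Hif1a window and the transcripts of Hif1a, so the starts of both windows are less certain. At least 1 core was present in 43.8% of all 32851 windows and in 69.2% of the 9690 windows with at least 60% G and C. At least 5 cores, the number in the Bnip3 window, were present in 1.66% of all windows and 4.28% of the G and C rich ones. The Bnip3 cores lie within 117 bases upstream of the start, and those at 108 and 107 bases overlap in 1 palindrome, CACGTG. That palindrome is also the E-box bound by other helix-loop-helix factors. In the Ankrd37 window a core begins 6 bases before the start. A match describes the letters of a window and is not evidence of binding, and the absence of a match applies to the printed window.

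In mutant ventricles, 2 of the 10 members rose, Hif3a and Bnip3, and none fell. Over all tested rows in the authors' deposited table, 2.03% were called higher and 1.48% lower (adjusted p below 0.05). The other 8 members did not pass the test. Before adjustment Egln3 also had a p below 0.05, which made 3 of 10 members, against 12.6% of all tested rows. Values of 9 members lay above control, against 52.8% of all tested rows, and Vegfa alone lay below. The median log2 fold change of the members was 0.72, against 0.07 over all tested rows and 0.08 over the 11292 rows with a mean of at least 1 RPKM. The members were chosen with earlier results of these data known, so these comparisons with all rows are a description only.

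**Figure D1:**
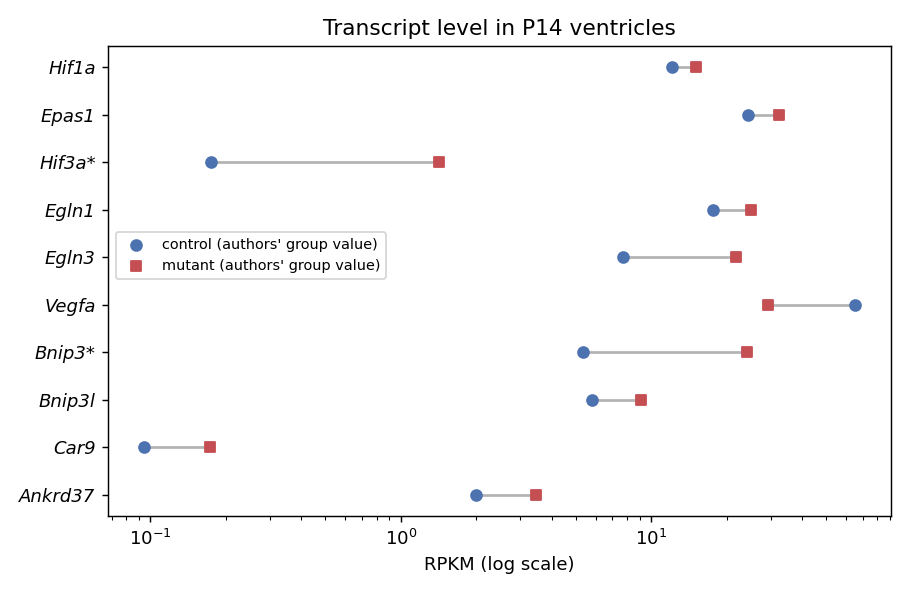
RPKM of each member (log axis) as the authors' value for control (circle) and mutant (square) ventricles, joined by a line, with * for genes called at adjusted p below 0.05. The longest lines belong to Hif3a and Bnip3, and Vegfa alone moves to the left, from 65.1 to 29.2 RPKM.

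Levels of the members differed widely. In control, Vegfa stood highest at 65.1 RPKM, followed by Epas1 at 24.4, Egln1 at 17.6 and Hif1a at 12.1 RPKM. Egln3 at 7.68, Bnip3l at 5.80 and Bnip3 at 5.34 RPKM followed, with Ankrd37 at 2.0 RPKM, Hif3a at 0.174 RPKM and Car9 at 0.0942 RPKM at the lower end. In mutant the order began with Epas1 at 32.5, Vegfa at 29.2, Egln1 at 25.1, Bnip3 at 24.1 and Egln3 at 21.9 RPKM. Hif1a at 15.1, Bnip3l at 9.07, Ankrd37 at 3.47, Hif3a at 1.42 and Car9 at 0.173 RPKM came after them. Bnip3 thus moved from rank 7 to rank 4, while the lowest 3 members kept their places. Without values per animal, it cannot be said which neighbours in these orders differ beyond their spread.

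Hif1a and Epas1 code for the alpha subunits that activate most HIF targets, Hif1a in nearly all cells and Epas1 (HIF-2 alpha) with high levels in endothelial cells. Neither passed the test. In the authors' deposited table Hif1a had a log2 fold change of 0.32 (p = 0.562). An approximate 95% interval, from the error that the deposited p-value implies, ran from -0.76 to 1.39. For Epas1 the authors' deposited table gives 0.42 (p = 0.496), and its interval ran from -0.78 to 1.61. A change of either gene within these bounds is compatible with the deposited values. Epas1 stood 2.02 times above Hif1a in control and 2.15 times above it in mutant, on the RPKM scale.

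The transcript of Hif1a lies on the plus strand of chromosome 12, from 75002362 to 75048517 (mm9). It overlaps the noncoding Gm15283 on the other strand. Gm15283 stood at 1.13 RPKM in the control group and 1.90 RPKM in the mutant group. Whether the authors counted by strand is not given in the sources used here, so reads in the shared stretch could not be told apart. Epas1 (chromosome 17, plus strand, 87153247 to 87232750) overlaps no other row. Beside Epas1, the 12 endothelial markers summed to 250.4 RPKM in control and 259 RPKM in mutant. Of these markers none was called, 1 reached p below 0.05 before adjustment in the authors' deposited table, and 8 of 12 lay below control. None of the 12 was at 0, and their part in the Epas1 value was not tested. In ventricles taken whole, fewer cells of a type and less RNA per cell cannot be told apart.

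Hif3a codes for the third alpha subunit, some isoforms of which lack a strong activation domain and inhibit the other HIFs. It was listed at 0.174 RPKM in control ventricles against 1.42 RPKM in mutant ones. The authors' deposited table gives this rise as 8.15-fold, 3.03 on the log2 scale, with adjusted p = 5.62e-05. The approximate interval of the rise ran from 1.86 to 4.2 on the log2 scale. Of the 11292 rows with a mean of at least 1 RPKM, 0.797% had a larger log2 fold change. Hif3a itself, with a mean of 0.797 RPKM, is not among these rows, so the share does not place it among rows of its own level. Even in mutant, 39.6% of protein coding rows stood at a higher RPKM than Hif3a, against 57.7% in control.

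The 3 alpha subunits summed to 36.7 RPKM in control and 49.0 RPKM in mutant. Hif3a made up 0.474% of this sum in control and 2.90% in mutant. Hif1a stood 69.5 times above Hif3a in control and 10.6 times above it in mutant. The rise of Hif3a therefore left it the rarest of the 3 transcripts in both groups. Levels were read for the gene as a whole (chromosome 7, minus strand, 17616856 to 17647776, mm9), and values per isoform were not analysed here, so the activating and inhibitory forms were not separated.

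The depth behind the Hif3a value could be estimated from small RNA genes of known length, in which RPKM times length steps by the worth of 1 read. In control these steps were 0.0170 and 0.0199 RPKM kb, and in mutant 0.00649 and 0.00891 RPKM kb. A smaller step means more mapped reads, so by this estimate the mutant group was sequenced more deeply than the control group. Read numbers of the groups therefore differ by depth as well as by level and do not measure the change. With the exonic length of GENCODE M21 (6710 bases) as a stand-in for the authors' length, the Hif3a value stood for 59 to 69 reads in control. In mutant it stood for 1070 to 1468 reads. Hif3a thus rested on far fewer reads in control than Hif1a, at 3578 to 4192. These are estimates over both animals of a group, and they assume that the authors scaled by mapped reads.

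**Figure D2:**
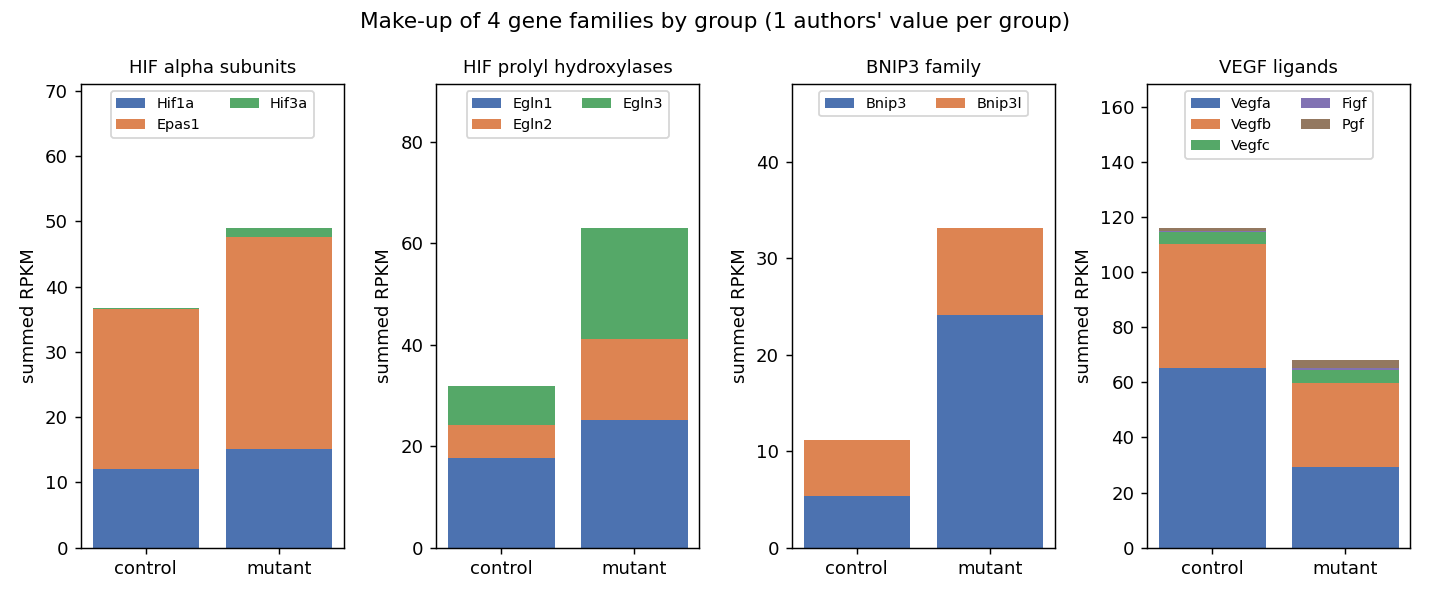
Stacked RPKM of the members of 4 families in control and mutant ventricles, 1 authors' value per group. Hif3a stays a thin layer among the alpha subunits, Egln3 and Bnip3 take a larger share in mutant, and the VEGF ligands sum to 116 RPKM in control against 68.2 RPKM in mutant, where Vegfa itself was not called.

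Among the stable partners and coactivators of the alpha subunits, 1 of 12 genes rose by the authors' deposited table, 0 fell and 11 were not called. Arnt, the direct partner, was listed at 3.37 RPKM in controls and at 3.56 RPKM in mutants. The gene that rose was Arntl, a circadian factor of the same protein family that can pair with HIF alpha subunits, from 1.56 to 5.07 RPKM (adjusted p = 0.0402 in the authors' deposited table, and 0.0589, no longer a call, once all log2 fold changes were shifted by the median of well expressed rows). Cited2, a HIF target that competes with HIFs for their coactivators, was listed at 5.19 and 15.1 RPKM (p = 0.00245, adjusted p = 0.0619 in the authors' deposited table).

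Egln1 and Egln3 code for the oxygen sensors PHD2 and PHD3. Egln1, the main HIF hydroxylase of most tissues, was listed at 17.6 RPKM in the control group and 25.1 RPKM in the mutant group. The log2 fold change of Egln1 in the authors' deposited table was 0.52 (p = 0.337), with an approximate interval from -0.54 to 1.57. Egln3 is a hydroxylase that HIFs themselves induce, in a feedback loop, and it is abundant in the heart. It was listed at 7.68 RPKM in control ventricles against 21.9 RPKM in mutant ones. In the authors' deposited table the Egln3 ratio was 2.85-fold, 1.51 on the log2 scale, with p = 0.00349 and adjusted p = 0.0796. Its approximate interval, from 0.50 to 2.52, is not adjusted for the number of rows and lay above 0, but Egln3 did not pass the threshold.

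Egln3 stood closest to the threshold among the members that missed it. Of rows with a mean of at least 1 RPKM, 4.76% had a larger log2 fold change. Egln1 was 2.29 times as abundant as Egln3 in control and 1.15 times as abundant in mutant. Egln2, the third hydroxylase, was listed at 6.57 and 16.1 RPKM (p = 0.0117, adjusted p = 0.174 in the authors' deposited table). The 3 hydroxylases summed to 31.9 RPKM in control and 63.1 RPKM in mutant, a ratio of 1.98. Within that sum Egln3 made up 24.1% in control and 34.7% in mutant, and Egln1 55.3% and 39.8%.

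Egln1 lies on chromosome 8 from 127432496 to 127473154, and Egln3 on chromosome 12 from 55279968 to 55304847 (mm9, both on the minus strand). No other row of the table overlaps either. The 16 other genes of oxygen sensing and HIF degradation, Egln2 included, held 0 called genes by the adjusted p of the authors' deposited table, and Egln2 was the 1 gene below 0.05 before adjustment. Their median log2 fold change was 0.28. Gnb2l1, a ribosomal scaffold protein that also binds Hif1a, was the most abundant of them at 34.4 RPKM in controls and at 75.9 RPKM in mutants without a call.

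**Figure D3:**
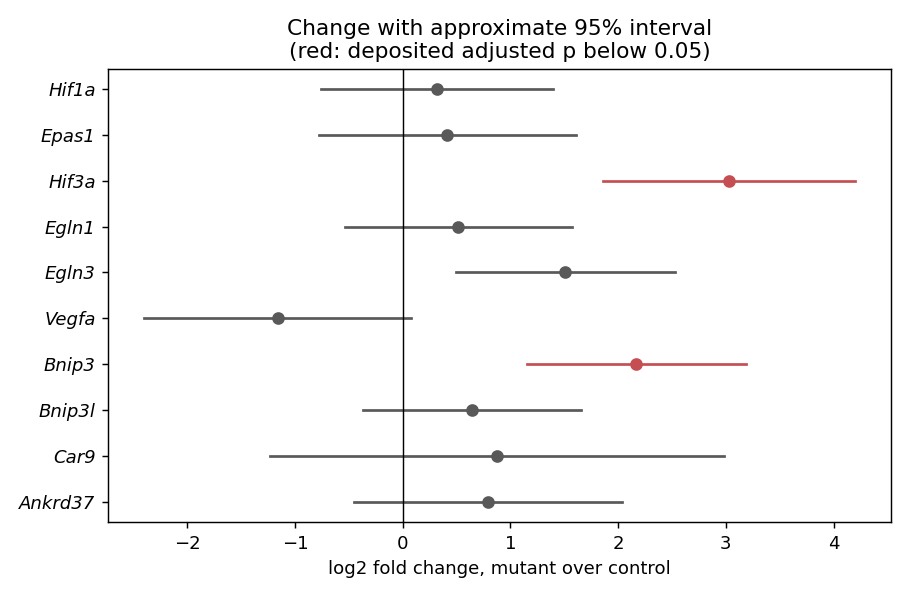
Log2 fold change of each member (mutant over control, points) with an approximate 95% interval from the error implied by the deposited p-value (lines), red where the deposited adjusted p is below 0.05. Hif3a and Bnip3 are called, the Egln3 interval lies above 0 without a call, and the Vegfa interval reaches from -2.40 to 0.08.

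Vegfa codes for the vascular endothelial growth factor that cardiomyocytes secrete to maintain capillaries, and it is a classical HIF target. It was listed at 65.1 RPKM in the control group and 29.2 RPKM in the mutant group. The authors' deposited table records a fold of 0.449, a log2 fold change of -1.16, p = 0.0670 and adjusted p = 0.458, so Vegfa did not pass the test. The approximate interval, from -2.40 to 0.08, ended below the lower bounds of Bnip3 (1.16) and Hif3a (1.86). The difference between the change of Vegfa and theirs was not tested, since it needs values per animal. Of rows with a mean of at least 1 RPKM, 6.15% had a lower log2 fold change. Vegfa was the member with the largest absolute difference, at -35.9 RPKM, although the test did not call it.

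In control, 0.812% of protein coding rows stood above Vegfa, and in mutant 2.93% did. The gene lies on chromosome 17, minus strand, from 46153942 to 46169326 (mm9), with no overlapping row. Vegfb, a ligand of the same family linked to fatty acid uptake in the heart, was listed at 45.2 RPKM in control ventricles against 30.5 RPKM in mutant ones without a call. Vegfa was 1.44 times as abundant as Vegfb in control and 0.957 times in mutant. It made up 56.0% of the summed level of the 5 VEGF ligands in control and 42.8% in mutant. Pgf, placental growth factor, was listed at 1.22 and 2.90 RPKM (p = 0.0456, adjusted p = 0.380 in the authors' deposited table).

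Among the 9 other ligands and receptors of this family, 1 fell, 0 rose and 8 were not called. The gene that fell was Nrp2, a coreceptor, from 3.73 to 1.18 RPKM, with adjusted p = 0.0436 in the authors' deposited table. Kdr, the main signalling receptor of Vegfa, was listed at 15.3 RPKM in controls and at 8.79 RPKM in mutants. Nrp1, another coreceptor, was listed at 39.6 and 20.8 RPKM, and Flt1, a receptor that also acts as a decoy, at 6.46 and 7.21 RPKM, none of them called. Beside Vegfa, which cardiomyocytes express, 9 of the 12 cardiomyocyte markers lay below control, with a median log2 fold change of -0.31. None of these markers was at 0 and their part in the Vegfa value was not tested.

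Bnip3 and Bnip3l code for related proteins of the outer mitochondrial membrane that recruit the autophagy machinery to mitochondria and can promote cell death. Bnip3 was listed at 5.34 RPKM in the control group and 24.1 RPKM in the mutant group. In the authors' deposited table this rise was 4.50-fold, 2.17 on the log2 scale, with adjusted p = 0.00217. Its approximate interval ran from 1.16 to 3.18. Bnip3l was listed at 5.80 RPKM in control ventricles against 9.07 RPKM in mutant ones. The log2 fold change of Bnip3l in the authors' deposited table was 0.64 with p = 0.213 and adjusted p = 0.743, and the interval ran from -0.37 to 1.65.

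Bnip3 and Bnip3l stood at about the same level in control, where Bnip3 was 0.921 times Bnip3l. In mutant Bnip3 was 2.66 times Bnip3l. Of the summed level of the pair, which went from 11.1 to 33.2 RPKM, Bnip3 made up 47.9% in control and 72.7% in mutant. The difference between the changes of these genes was not tested, since it needs values per animal, and their intervals overlap. Of rows with a mean of at least 1 RPKM, 1.77% had a larger log2 fold change than Bnip3. In control 16.8% of protein coding rows stood above Bnip3, and in mutant 3.65%. The Bnip3 value stood for an estimated 607 to 711 reads in control and 6130 to 8411 in mutant, where the estimated depth was greater.

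Bnip3 lies on chromosome 7 from 146082519 to 146101202 and Bnip3l on chromosome 14 from 67604076 to 67627714 (mm9, both on the minus strand), without overlapping rows. Among 20 partners of these proteins and genes of mitophagy, 3 rose, 0 fell and 17 were not called. Gabarapl1, a protein of the autophagosome membrane of the family that Bnip3 and Bnip3l bind, rose from 5.72 to 27.4 RPKM. Bcl2l1, a survival protein that binds Bnip3, rose from 4.21 to 14.8 RPKM. Sqstm1, an autophagy receptor, rose from 22 to 95.9 RPKM, with adjusted p = 0.0262 in the authors' deposited table. Map1lc3a, the most abundant gene of this list, was listed at 159 and 192 RPKM, and Map1lc3b at 26.8 and 41.7 RPKM, neither with a call.

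Car9 codes for a membrane carbonic anhydrase that acidifies the outside of hypoxic cells and is among the most HIF-dependent genes known from tumour cells. It was near the lower end of detection, at 0.0942 RPKM in controls and at 0.173 RPKM in mutants. Its log2 fold change was 0.88 in the authors' deposited table, with p = 0.415, and the approximate interval ran from -1.23 to 2.99. By the estimate from read steps, Car9 rested on 11 to 13 reads in control and 45 to 61 in mutant, where the estimated depth was greater. A rise of several fold or a fall, within these bounds, is thus compatible with the values at this depth.

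The Car9 gene (chromosome 4, plus strand, 43519838 to 43526601, mm9) overlaps the noncoding Gm12454 on the other strand over 1782 bases. Gm12454 was listed at 0.544 RPKM in the control group and 0.225 RPKM in the mutant group, above Car9 in both groups, so Car9 reads in the shared stretch are uncertain. Of the 15 other carbonic anhydrases tested, 2 fell, 0 rose and 13 were not called. Car8 fell from 5.72 to 1.49 RPKM and Car7 from 3.01 to 0.782 RPKM. The abundant forms Car14 and Car4, which face the outside of the cell like Car9, did not pass the test. Car14 was at 17.9 RPKM in controls and 13.5 RPKM in mutants, and Car4 at 10.4 and 9.47 RPKM.

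Ankrd37 codes for a small ankyrin repeat protein whose gene HIF induces in human cells. It was listed at 2.0 RPKM in control ventricles against 3.47 RPKM in mutant ones. In the authors' deposited table the log2 fold change of Ankrd37 was 0.80 with p = 0.210 and adjusted p = 0.737, and the interval ran from -0.45 to 2.04. The Ankrd37 gene (chromosome 8, minus strand, 47082256 to 47085221, mm9) lies between genes of the plus strand that overlap both of its ends. The shared stretches are 57 bases with Ufsp2 and 565 bases with Lrp2bp. Ufsp2 was listed at 3.74 RPKM in controls and at 4.25 RPKM in mutants, and Lrp2bp at 0.428 and 0.151 RPKM, so without strand the Ankrd37 level is uncertain to the extent of these overlaps.

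**Figure D4:**
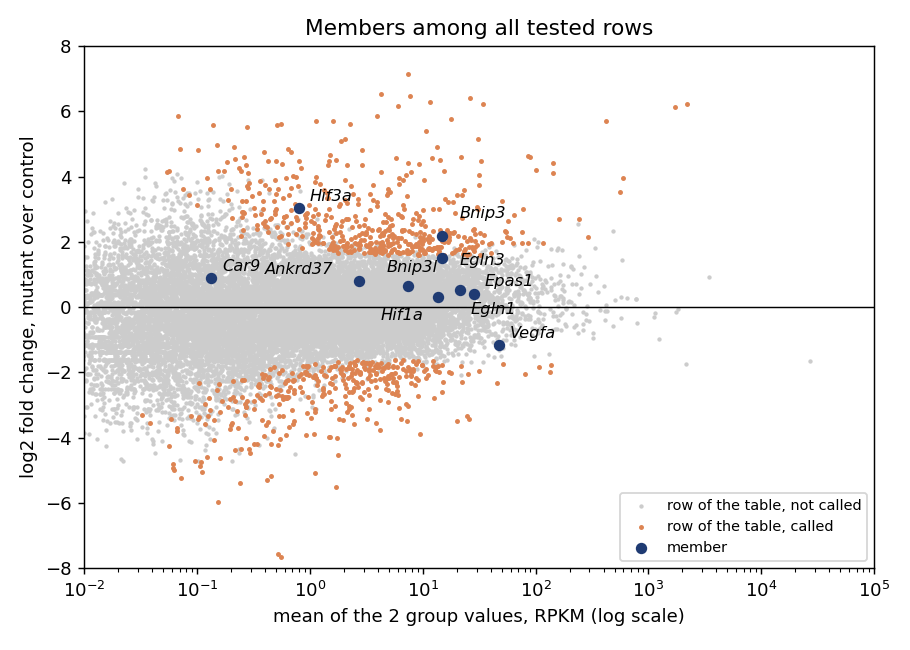
Log2 fold change (mutant over control) against the mean of the group values (RPKM, log axis) for tested rows above 0 in both groups and with a mean of at least 0.01 RPKM. Grey points are rows that were not called, orange points are called rows, and the labelled points are the 10 members, of which Hif3a and Bnip3 lie among the called rows and Egln3 at their edge.

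Other genes of the pathway, HIF targets and others, were read beside the members, in lists chosen with earlier results of these data known. Over the 9 lists, 18 of 152 distinct genes rose and 4 fell, 11.8% and 2.63%, beside the 2.03% and 1.48% of all tested rows. Of all 24454 tested rows, 11292 had a mean of at least 1 RPKM, so these shares are not matched for level. The median log2 fold change of the listed genes was 0.56, and 108 of the 152 lay above control. In glucose use, which HIFs shift toward lactate, 3 of 24 targets rose and none fell, with a median of 1.04. They were Slc16a3, a lactate exporter, from 0.570 to 6.25 RPKM, Slc2a1, a glucose transporter, from 1.33 to 8.14 RPKM, and Pfkp, a phosphofructokinase, from 4.47 to 15.4 RPKM. The call of Pfkp, with adjusted p = 0.0394 in the authors' deposited table, was lost after that median shift, at 0.0571. Pgk1 and Tpi1, glycolytic enzymes whose reads can be shared with pseudogene copies, came close as Egln3 did, with adjusted p = 0.0900 and 0.0902 in the authors' deposited table.

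Among targets in mitochondria, cell survival and growth, 5 of 20 rose and none fell, with a median of 1.0. These were Pmaip1, a cell death protein like Bnip3, Stc2, a secreted glycoprotein, Igfbp3, which binds insulin-like growth factors, Ddit4, an inhibitor of mTORC1, and Ak4, a mitochondrial adenylate kinase. Ddit4 rose from 15.9 to 61.4 RPKM and Stc2 from 2.21 to 14.3 RPKM. Among targets in vessels, iron and oxygen supply, 5 of 21 rose, with Edn1, Nt5e, Hmox1 and Trf among them, and 1 fell, Nos2. Edn1, the vasoconstrictor endothelin, rose from 2.26 to 9.82 RPKM, whereas Adm, adrenomedullin, was listed at 2.25 and 4.82 RPKM without a call. Among targets in matrix, chromatin and pH, Lox, which crosslinks collagen, rose from 4.36 to 58.3 RPKM, 1 of 16, and none fell. Several of these genes are known targets of other stress programs as well.

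**Figure D5:**
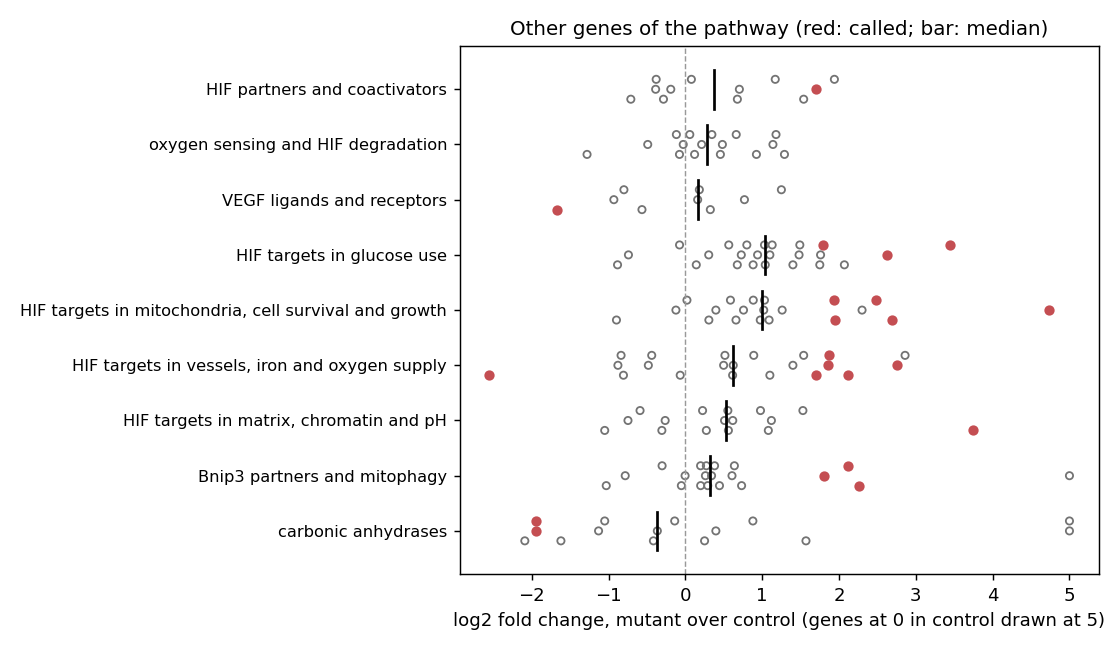
Log2 fold change (mutant over control) of the other pathway genes by list, with called genes in red, the rest as open circles and the list median as a black bar. Genes listed at 0 in control are drawn at 5, and the lists of targets in glucose use and in mitochondria, survival and growth have medians of 1.04 and 1.0.

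Markers of other cells were read beside the called members Hif3a and Bnip3 and beside Egln3, which was not called. Macrophage markers lay above control in 11 of 12 and summed to 80.7 RPKM in control and 228 RPKM in mutant. Their median log2 fold change was 1.0, and 5 of the 12 had p below 0.05 before adjustment in the authors' deposited table. Fibroblast markers summed to 815 and 1092 RPKM, with 8 of 12 above control, and red cell markers to 177 and 307 RPKM, with 8 of 8 above. Mural cell markers summed to 316 and 954 RPKM, but 5 of 10 lay above control and 5 below, with a median log2 fold change of -0.19. The difference of that sum was in Acta2, smooth muscle actin, at 158 and 802 RPKM without a call, and the other 9 summed to 158 and 152 RPKM. Acta2, Actc1 and Eng were singled out after their values were seen. No marker of these lists was at 0 in either group. The part of these cells in the values of Hif3a, Bnip3 and Egln3 was not tested.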

How the data were processed

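Ventricular RNA of 2 control and 2 mutant mice was sequenced. Per the file headers, the authors deposited 1 RPKM value per group. The deposited columns also hold the authors' fold (ratio, mutant over control) and log2 fold, with the p-value of the authors' test and its adjusted value. Bowtie 0.12.9, DESeq and mm9 appear in the submitters' processing notes, with no role stated. Annotation, counter and strand setting: not given in the sources used here. Where both RPKM values were at least 1, their ratio came within 0.971% of the deposited fold, and a recomputed Benjamini-Hochberg adjustment differed from the deposited one by at most 0.594%.

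A gene was called at a deposited adjusted p below 0.05. Rows at 0 in both groups (12360) were not tested by the authors. Approximate 95% intervals used the log2 fold change divided by the normal quantile of its p-value as the error, which treats the deposited test as normal. The code for the interval and the adjustment was tested on simulated data with normal errors. That test cannot show whether the deposited test can be treated as normal. No model over animals could be fitted, and no set test was run. Read worth was taken from small RNA genes seen in 1 group alone: 92 of 92 low values in control and 139 of 139 in mutant lay within 3% of sums of the step sizes, which were chosen from these same values. Nothing in the labels says that animals of a group were littermates.

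The members and gene lists were chosen with earlier results of these data known. Of each pathway list, the text drew named genes from those called, then the lowest unadjusted p below 0.05, then the highest mean RPKM. Adm, Flt1, Kdr and Arnt were named for their roles after their values were seen. Of the listed symbols, 2 were not matched. RefSeq promoter windows (GRCm38.p6) matched 8 of 10 members. Epas1 and Bnip3l were not matched. Rows without an end coordinate (1093) were not in the search for overlapping genes. Coordinates of genes are those of the deposited table (mm9) and those of windows are GRCm38.p6. Python 3.11.15, pandas 2.3.3, numpy 2.4.6 and scipy 1.17.1 were used.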

Additional observations from a re-analysis of the deposited data

How the results depend on the processing

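The calls of Hif3a and Bnip3 held when log2 fold changes were shifted by the median of well expressed rows (0.09) or by the upper quartile (0.03). Under these shifts the adjusted p from the implied error was 0.000108 and 7.12e-05 for Hif3a, and 0.0038 and 0.0027 for Bnip3. Adjusted over rows with a mean of at least 1 RPKM, 1 member was called higher in place of 2, because Hif3a lies below that level and was not in the adjustment. There the Benjamini-Hochberg adjusted p of the deposited test was 0.0540 for Egln3, and under the shifts it was 0.110 and 0.0913. With a pseudocount of 1 RPKM the log2 fold change of Hif3a was 1.04 in place of 3.03, since the pseudocount exceeds its control level. Of 48 alternatives of the members' log2 fold changes, 47 kept direction and side of the threshold or stayed within the interval, and 19 of 20 alternatives of the counts stayed within 1.5 times. Some of these counts could not move. Each member has 1 row, so taking the lowest row of a repeated symbol changed nothing. A stricter threshold of 0.01 could not raise the count of 0 members called lower. Under the median shift 16 genes of the pathway lists were called higher in place of 18, without Arntl and Pfkp, and 4 lower as before. No paired analysis was possible because the table holds 1 value per group, and for the same reason leaving out each replicate was not run. Depth limits Car9 most, and a missed call of any member does not show that it was unchanged.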

Other observations

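A few genes of the marker lists were called. Lyz2, lysozyme of macrophages, rose from 18.4 to 90.5 RPKM, the 1 macrophage marker of 12 that was called. Of those 12, 5 had p below 0.05 before adjustment in the authors' deposited table, and the median log2 fold change of the list was 1.0. Tagln, a smooth muscle actin-binding protein, rose from 9.76 to 42.6 RPKM, and Vtn, vitronectin, fell from 8.46 to 1.44 RPKM, in a mural cell list of 10, of which 4 had p below 0.05 before adjustment. Of 10 skeletal muscle markers tested, Tnni2, fast skeletal troponin I, fell from 1.03 to 0.0633 RPKM. In a list of 8 genes taken as atrial markers Myl1, a myosin light chain known chiefly from fast skeletal muscle, rose from 0.145 to 3.29 RPKM. The other light chains of that list were not called, Myl7 at 27.9 RPKM in controls and 17.7 RPKM in mutants, and Myl4 at 4.28 and 6.85 RPKM. Of these 8, 3 lay above control and 5 below, with a median log2 fold change of -0.525. The call of Myl1 thus does not stand for the list. Before adjustment, 1 of these skeletal muscle markers and 3 of these atrial markers had p below 0.05. By the adjusted p of the authors' deposited table, 0 of 12 fibroblast markers and 0 of 8 red cell markers were called, with 3 and 1 below 0.05 before adjustment.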
